A study of Mus musculus with 18 samples.

Results

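The OAS and IFIT antiviral effectors are 9 genes chosen by symbol: Oas1a, Oas2, Oas3, Oasl1 and Oasl2 of the oligoadenylate synthetase (OAS) family, and Ifit1, Ifit2, Ifit3 and Ifit3b of the family of interferon-induced proteins with tetratricopeptide repeats (IFIT). They are 9 of 48529 genes summed from the deposited quantifications, and all 9 were among the 15774 genes with enough reads to be tested. They were measured in the dorsal root ganglion (DRG), which holds the cell bodies of sensory neurons together with glia, vessels and immune cells. Ipsilateral whole L2, L3 and L4 ganglia came from male C57BL/KaLwRijHsd mice, labelled as 5 to 7 weeks old, on day 24 after surgery, as total RNA. The MM group comprised 9 mice that received 5TGM1-GFP cells into the femur; these are murine myeloma cells, a cancer of plasma cells, and carry green fluorescent protein. The SHAM group comprised 9 mice given vehicle by the same route. Each library was taken as 1 mouse and held between 19218249 and 21771206 estimated reads. The mice of both groups carry the KaLwRij background in which 5TGM1 cells grow, and the model rests on a single myeloma line.

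Cells that sense double-stranded RNA or that receive interferon transcribe both families. OAS1, OAS2 and OAS3 enzymes, once bound to double-stranded RNA, make short 2'-5'-linked oligoadenylates, which act as second messengers. The OAS-like proteins Oasl1 and Oasl2 carry a ubiquitin-like tail, Oasl2 is known to keep synthetase activity, and Oasl1 is known to restrain translation of the transcription factor Irf7. IFIT proteins bind viral RNA or translation initiation factors. Type I interferon acts through Ifnar1 and Ifnar2, the kinases Jak1 and Tyk2, and a complex that includes Stat2 and Irf9 and binds the interferon-stimulated response element (ISRE) in target promoters.

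The ISRE was searched in RefSeq promoter windows of GRCm38.p6, each from 250 bases before to 50 bases after a gene's start, as GAAANNGAAA on both strands. The table held 8 of the 9 members, all except Oas2. Of these, 5 had at least 1 match: 2 each in Oas1a, Ifit1, Ifit3 and Ifit3b and 1 in Oas3. The same core was present in 3.43% of all 32817 windows, and 2 or more matches were present in 0.22%. With only the 200 bases before the start, the same count was 5 of 8 members, against 2.26% of all windows. The gamma-activated site TTCNNNGAA, a core known from genes that respond to interferon gamma, was found in Oas1a and in Ifit2, and in 8.29% of all windows. A match is a run of letters and was not tested for binding.

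The 200 bases before the start are shown for 7 genes, with each ISRE match in capitals. These 7 were chosen with their values known, and the windows of the members Oas3, Oasl1 and Ifit2 are not shown. Oas1a (chr5:120907526-120907725, minus strand) and its near-identical neighbour Oas1g (chr5:120887614-120887813, minus strand) held the same run of 2 overlapping matches close to the start. Oas1c (chr5:120812515-120812714, minus strand), another OAS1 gene, held that run on the opposite strand and farther away. Ifit1 (chr19:34640689-34640888, plus strand), Ifit3 (chr19:34583329-34583528, plus strand) and Ifit3b (chr19:34607757-34607956, plus strand) each held 2 separate matches. The Oasl2 window (chr5:114896734-114896933, plus strand) held none.
Oas1a: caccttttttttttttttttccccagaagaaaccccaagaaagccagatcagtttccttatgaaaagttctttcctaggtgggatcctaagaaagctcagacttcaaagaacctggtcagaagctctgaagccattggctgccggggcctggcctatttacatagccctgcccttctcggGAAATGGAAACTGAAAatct
Oas1g: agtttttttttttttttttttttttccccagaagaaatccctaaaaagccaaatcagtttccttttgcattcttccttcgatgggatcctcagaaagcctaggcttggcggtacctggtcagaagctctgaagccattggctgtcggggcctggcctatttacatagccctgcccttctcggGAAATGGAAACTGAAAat
Oas1c: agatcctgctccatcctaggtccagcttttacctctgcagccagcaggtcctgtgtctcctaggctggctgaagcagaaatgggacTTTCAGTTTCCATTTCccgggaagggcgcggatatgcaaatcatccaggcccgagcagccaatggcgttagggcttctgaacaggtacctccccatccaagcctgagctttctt
Ifit1: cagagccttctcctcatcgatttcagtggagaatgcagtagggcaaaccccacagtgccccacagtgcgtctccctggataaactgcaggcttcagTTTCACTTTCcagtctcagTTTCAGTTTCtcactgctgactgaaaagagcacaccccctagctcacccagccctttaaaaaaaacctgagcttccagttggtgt
Ifit3: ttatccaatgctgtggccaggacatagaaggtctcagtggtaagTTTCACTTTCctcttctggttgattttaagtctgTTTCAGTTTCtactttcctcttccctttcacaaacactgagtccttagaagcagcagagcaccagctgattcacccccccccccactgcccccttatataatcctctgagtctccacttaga
Ifit3b: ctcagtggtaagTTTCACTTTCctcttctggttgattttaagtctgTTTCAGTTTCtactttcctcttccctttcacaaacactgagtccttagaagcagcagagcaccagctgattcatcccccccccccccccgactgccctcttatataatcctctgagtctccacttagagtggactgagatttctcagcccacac
Oasl2: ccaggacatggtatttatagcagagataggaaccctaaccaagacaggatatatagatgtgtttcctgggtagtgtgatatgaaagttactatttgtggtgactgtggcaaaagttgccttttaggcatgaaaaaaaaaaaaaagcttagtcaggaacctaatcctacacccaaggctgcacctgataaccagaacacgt
In Oas1a the matches began 20 and 14 bases before the start, and in Oas1g 18 and 12 bases before it. In Oas1c they began 114 and 108 bases before the start. The Ifit3 and Ifit3b windows carried the same pair of matches, read on the opposite strand as GAAAGTGAAA and GAAACTGAAA, and so did the Ifit1 window. The window of Ifit1 and 1 of the 2 windows of Ifit1bl2, its neighbour transcribed the other way, overlapped by 245 bases and shared both matches. The other Ifit1bl2 window held no match. Oasl1 and Ifit2 had no match in their windows.

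Level per transcript length was compared as TPM (reads corrected for transcript length and scaled to a fixed total) summed per gene. In SHAM ganglia the order of median TPM was Oasl2, Ifit3, Ifit2, Ifit1, Ifit3b, Oas1a, Oasl1, Oas2 and Oas3. Oasl2 stood highest at a median of 41.4 TPM, between 34.8 and 45.5 in the 9 SHAM libraries. The SHAM medians of Ifit3, Ifit2 and Ifit1 were 19.7, 18.03 and 13.1 TPM, and their ranges overlapped. The difference between genes within the same libraries was not tested. Ifit3b followed at 6.22 TPM. Oas1a, Oas2 and Oas3 were low, with SHAM medians of 2.35 TPM for Oas1a, 0.844 for Oas2 and 0.261 for Oas3. The Oasl1 median, 1.80 TPM, lay within the range of Oas1a, from 1.57 to 3.16 TPM. Oas2 and Oas3 also overlapped, between 0.239 and 1.15 TPM and between 0.0595 and 0.697 TPM.

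**Figure D1:**
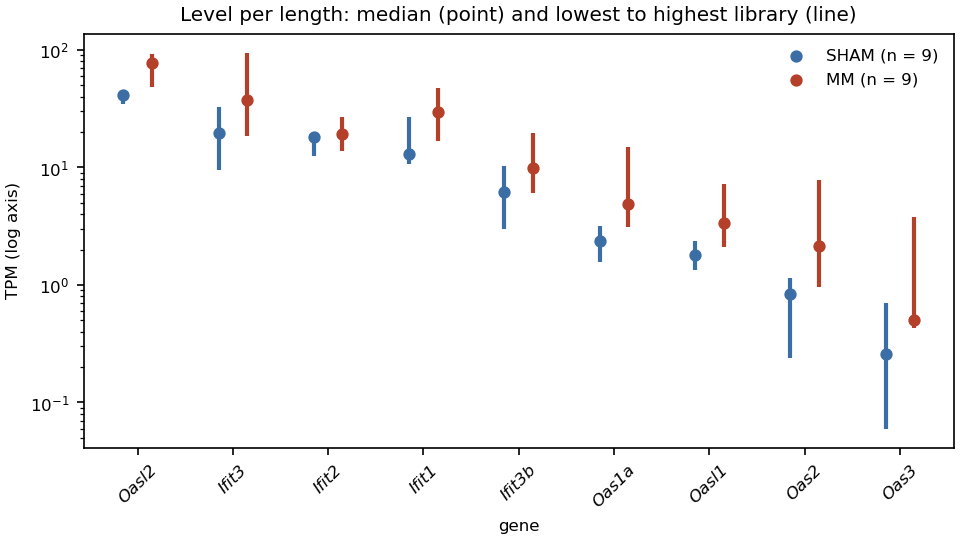
Level of the 9 members in TPM (log axis) in SHAM and MM libraries. Points are medians over 9 libraries, lines run from the lowest to the highest library, and genes are ordered by SHAM median from Oasl2 at 41.4 TPM to Oas3 at 0.261 TPM.

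Comparing MM with SHAM ganglia asked whether these effectors differed in mice given myeloma cells into the femur. Of the 9 members, 5 rose, none fell and 4 did not pass, at an adjusted p under 0.05 in edgeR's quasi-likelihood test with Benjamini-Hochberg adjustment over all tested genes. In the same test 2.75% of all tested genes rose. The 5 that rose were Oas1a, Oas2, Oasl1, Oasl2 and Ifit1, so 4 of 5 OAS members and 1 of 4 IFIT members passed. All 9 log2 fold changes were positive, with a median of 1.04 over the members and of -0.004 over all tested genes. The median log2 fold change was 1.51 over the OAS members and 0.86 over the IFIT members. The difference between the families was not tested. By DESeq2's test 8 of 9 members rose, all except Ifit2, where 5.99% of all tested genes rose. These are whole-tissue values, in which a change in the number of cells of a type and a change in RNA per cell cannot be told apart.

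Oas1a (ENSMUSG00000052776), an active mouse OAS1 enzyme, was measured in CPM (reads scaled for library size and composition). In the SHAM libraries it lay between 1.41 and 2.89 CPM with a median of 2.49. In the MM libraries it lay between 2.96 and 16.2 CPM with a median of 4.44. Every MM library was above every SHAM library, which held for 0.12% of all tested genes and for no other member. The closest libraries were MM2 at 2.96 CPM and SHAM5 at 2.89 CPM. Oas1a rose by a log2 fold change of 1.51 ± 0.29 (SE, n = 9 and 9; 2.85-fold; adjusted p = 0.0174).

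Oas2 (ENSMUSG00000032690), a synthetase with a pair of catalytic-type units, had 10 to 337 reads per library. Its SHAM libraries lay between 0.502 and 2.30 CPM with a median of 1.35, and its MM libraries between 2.0 and 15.7 CPM with a median of 3.58. The 3 highest MM libraries were MM5 at 15.7, MM9 at 9.89 and MM8 at 8.47 CPM, and the other 6 were at or under 4.19 CPM. The groups overlapped, with 6 MM libraries above the highest SHAM library. Oas2 rose by a log2 fold change of 2.03 ± 0.44 (4.09-fold; adjusted p = 0.0242). The call was lost when any 1 of MM5, MM8, MM9, SHAM1, SHAM2, SHAM7 or SHAM8 was left out. The adjusted p was then at most 0.0566 and the log2 fold change at least 1.67. Those fits called 84 to 137 genes in all, against 471 with all libraries.

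Oas3 (ENSMUSG00000032661), the longest synthetase and the one with the highest affinity for long double-stranded RNA, was the scarcest member at 3 to 231 reads per library. It lay between 0.151 and 1.87 CPM in SHAM libraries (median 0.700) and between 0.662 and 10.8 CPM in MM libraries (median 1.33). Only 4 MM libraries, MM5, MM9, MM8 and MM3, exceeded the highest SHAM library. The log2 fold change was 2.07 ± 0.58 with a 95% interval from 0.87 to 3.29, the widest of the 9, and the adjusted p of 0.0561 did not pass. It passed in 6 of the 18 fits that left out 1 library, those without MM1, MM2, MM4, MM6, MM7 or SHAM6, at an adjusted p between 0.0352 and 0.0487. Its lowest library, SHAM2, held 3 reads, and 3 reads corresponded to between 0.139 and 0.158 CPM across libraries.

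Oasl1 (ENSMUSG00000041827) lay between 1.46 and 2.58 CPM in SHAM libraries (median 2.06) and between 2.32 and 9.27 CPM in MM libraries (median 3.91). MM2 and MM6 overlapped the SHAM range and the other 7 MM libraries were above it. Oasl1 rose by a log2 fold change of 1.27 ± 0.25 (2.41-fold; adjusted p = 0.0189). Its relative Oasl2 (ENSMUSG00000029561), the most abundant member, lay between 42.9 and 64.8 CPM in SHAM libraries (median 54.5) and between 60.5 and 130 CPM in MM libraries (median 105). MM2 at 60.5 and MM6 at 61.7 CPM were the only MM libraries under the highest SHAM library, SHAM8. Oasl2 had the lowest adjusted p of the members, 0.00681, at a log2 fold change of 0.86 ± 0.14 (1.82-fold). Oas1a, Oasl1 and Oasl2 passed in all 18 fits that left out 1 library.

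Ifit1 (ENSMUSG00000034459), which binds the cap region of RNA lacking a host methyl mark, lay between 14.3 and 38.6 CPM in SHAM libraries (median 19.99). In MM libraries it lay between 23.9 and 76.2 CPM (median 41.9). The groups overlapped, and 6 MM libraries exceeded the highest SHAM library, SHAM4. Ifit1 rose by a log2 fold change of 0.90 ± 0.24 (1.87-fold), with an adjusted p of 0.0490. The call was lost in 12 of 18 fits that left out 1 library, where the adjusted p reached 0.113 and the log2 fold change was at least 0.77. These were the fits without MM4, MM5, MM7, MM8 or MM9, or without any SHAM library except SHAM4 or SHAM6. They called 84 to 630 genes in all, against 471 with all libraries.

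Ifit2 (ENSMUSG00000045932), known to restrict some viruses in the mouse nervous system, differed least. It lay between 28.9 and 41.9 CPM in SHAM libraries (median 31.6) and between 30.5 and 61.1 CPM in MM libraries (median 36.6). MM5, MM9, MM4 and MM7 were above the highest SHAM library, SHAM7, and the other 5 MM libraries fell within the SHAM range. The log2 fold change was 0.28 ± 0.12 (95% interval from 0.03 to 0.52), and the adjusted p of 0.174 did not pass in this fit or in any of the 18 that left out 1 library.

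Ifit3 (ENSMUSG00000074896) lay between 9.44 and 28.9 CPM in SHAM libraries (median 16.4) and between 17.5 and 94.3 CPM in MM libraries (median 32.0). MM5, at 94.3 CPM, was more than 2-fold above the next library, MM9 at 39.9 CPM. The log2 fold change was 1.04 ± 0.30 (2.06-fold), and the adjusted p of 0.0624 did not pass. Ifit3b (ENSMUSG00000062488), its close copy, lay between 3.45 and 10.7 CPM in SHAM libraries (median 6.07) and between 6.72 and 22.9 CPM in MM libraries (median 10.8). Its log2 fold change was 0.82 ± 0.24 (1.77-fold; adjusted p = 0.0678), which did not pass. Both passed in 3 of the 18 fits without 1 library: Ifit3 without MM2, MM3 or SHAM6, at an adjusted p between 0.0333 and 0.0439, and Ifit3b without MM2, MM3 or SHAM4, between 0.0440 and 0.0484.

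**Figure D2:**
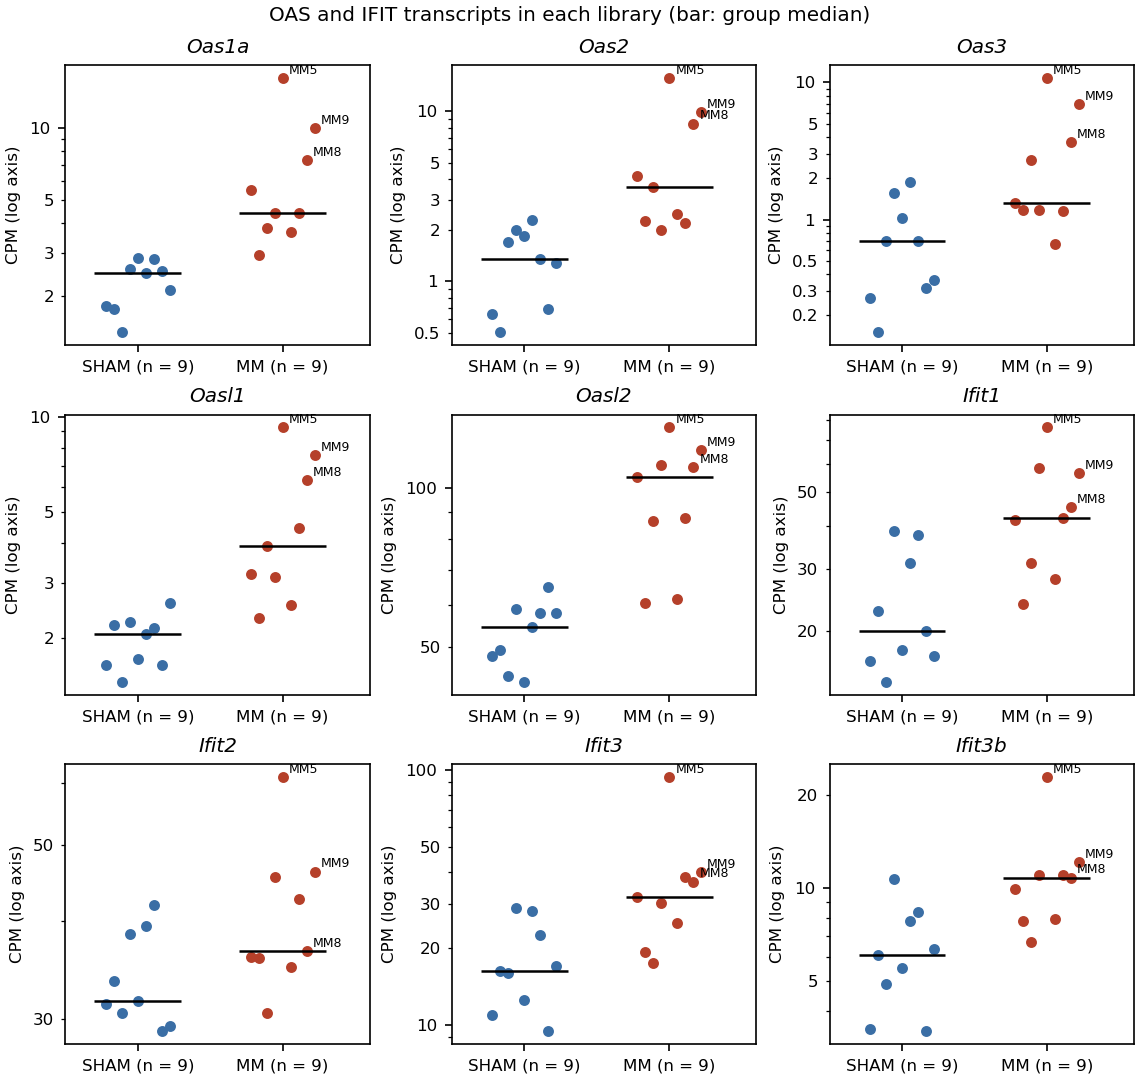
CPM of each member (log axes) in 9 SHAM and 9 MM libraries, 1 point per library, with a bar at the group median and the libraries MM5, MM8 and MM9 named. MM5 was the highest library for every member, and the groups were apart only for Oas1a (MM from 2.96, SHAM up to 2.89 CPM).

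Some of the members share sequence, which limits how far their reads can be assigned. Of the distinct 31-base words in Oas1a transcripts, 68.7% also occurred in Oas1g, and 61.8% of those in Ifit3 occurred in Ifit3b. Oas2 and Ifit2 shared none with another gene, and the shares were 2.0% for Oas3, 1.2% for Oasl2 and 0.1% for Oasl1. Ifit1 shared 10.5%, mostly with Ifit1bl2. With each pair summed to 1 gene, Oas1a plus Oas1g rose by a log2 fold change of 1.68 (adjusted p = 0.0138). Ifit3 plus Ifit3b had a log2 fold change of 0.99 (adjusted p = 0.0616) and did not pass, as neither gene did alone.

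The transcripts behind each member were described as shares of its summed reads, without a test. Oas1a, Ifit1, Ifit3 and Ifit3b had 1 annotated transcript each, and a single protein-coding transcript held at least 98.9% of Ifit2 reads and 99.3% of Oas3 reads in each group. Oasl2 reads were divided between the protein-coding Oasl2-201, at 51.6% in MM and 55.3% in SHAM, and Oasl2-205, annotated as a target of nonsense-mediated decay, at 46.7% and 43.0%. The shares of Oas2 transcripts were not read, because the retained-intron transcript Oas2-204 was given less than 0.5 of a read in 2 of 9 MM and 6 of 9 SHAM libraries. The shares of Oasl1-201 and Oasl1-202 were not read, because in 15 of 18 libraries the quantification gave 1 of them less than 0.5 of a read.

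The libraries did not contribute evenly. MM5 was the highest library for all 9 members. For Oas1a, Oas2, Oas3 and Oasl1 the 3 highest libraries were MM5, MM8 and MM9. In those 3 the mean CPM was 5.21-fold that of the other 6 MM libraries for Oas3 and 4.07-fold for Oas2. It was 2.70-fold for Oas1a and 2.37-fold for Oasl1. A ratio above 1 was given in advance for these 4 genes, because the 3 libraries are their highest. The ratio was lower for Oasl2, at 1.40, and for the IFIT members, at 1.58 for Ifit1, 1.28 for Ifit2, 2.11 for Ifit3 and 1.68 for Ifit3b. Among the SHAM libraries, SHAM4, SHAM6 and SHAM7 were the 3 highest for each of the 4 IFIT members and for no OAS member as a set.

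**Figure D3:**
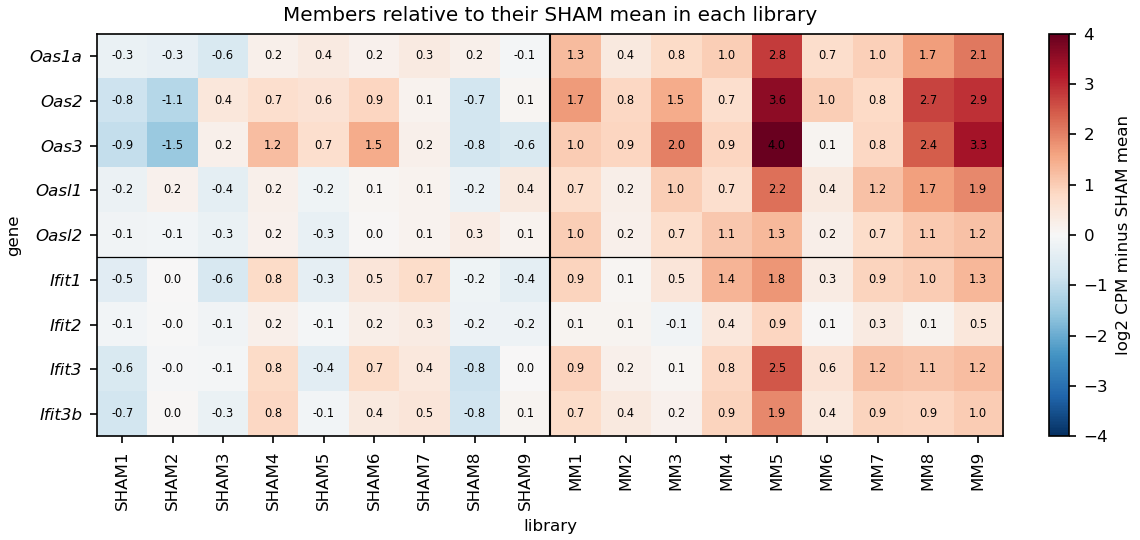
Log2 CPM minus the SHAM mean of the gene, for each member (rows, OAS above the line and IFIT below it) in each library (columns, SHAM left of the line and MM right of it). The values in MM5, MM8 and MM9 reach 3.95 for Oas3 in MM5, while Ifit2 stays within 0.86 of its SHAM mean in every library.

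The same 3 libraries held the most RNA of plasma cell and macrophage markers. Summed over 8 plasma cell and myeloma markers, MM5, MM8 and MM9 had 4184, 4785 and 8102 CPM. The other MM libraries had 42.1 to 814.5 CPM, the lowest of them within the SHAM range of 22.7 to 53.6. All 6 of these markers that could be tested rose. Summed over 8 macrophage markers, MM5, MM8 and MM9 had 298, 159.5 and 222.5 CPM. The other MM libraries had 52.2 to 82.5 CPM and SHAM libraries had 38.6 to 89.0, and 3 of 8 rose. Markers of sensory neurons summed to 4540 CPM in MM5, the lowest library, to 6320 in MM9 and to 8603 in MM8. The other MM libraries had between 8324 and 10030 CPM, against 7281 to 9472 in SHAM libraries, and none of 8 changed by the test. Of 6 T and natural killer cell markers only 1 could be tested. Their sum was 8.01 CPM in MM5, 5.90 in MM9 and 2.99 in MM8. It was at most 2.91 CPM in the other MM libraries and 2.87 in SHAM libraries. For plasmacytoid dendritic cells, a known source of interferon, 5 markers summed to 83.7 CPM in MM5, 71.0 in MM8 and 102 in MM9, and to between 37.6 and 47.3 CPM in the other MM libraries. SHAM libraries had between 30.4 and 100.4 CPM, the top being SHAM8, where Cox6a2 alone had 68.7 CPM. Tcf4 made up most of the sum in MM9, at 90.2 CPM. Siglech, Ccr9 and Klk1 reached at most 2.75, 1.40 and 0.84 CPM in any library. Only 2 of these 5 markers, Cox6a2 and Tcf4, could be tested, and neither passed. MM5 was also the highest of all libraries in the sums of Schwann cell markers, at 16750 CPM (other MM up to 10240, SHAM up to 12460), and of endothelial markers, at 196.7 CPM (other MM up to 123.6, SHAM up to 120.1). No Schwann cell or endothelial marker passed. No marker was at 0 in every library. The part of these cells in the rise of the members was not tested.

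Without MM5, MM8 and MM9, 2 of 9 members still rose, where 0.331% of all tested genes did. Oas1a rose by a log2 fold change of 0.86 ± 0.17 (adjusted p = 0.0348). Oasl2 rose by 0.68 ± 0.14 on the log2 scale (adjusted p = 0.0440). The other 7 stayed positive without passing. Oas2 had a log2 fold change of 1.01 (adjusted p = 0.205), Oas3 of 0.81 and Oasl1 of 0.72 (adjusted p = 0.0640). The IFIT members had log2 fold changes of 0.65 for Ifit1 (adjusted p = 0.427), 0.58 for Ifit3, 0.52 for Ifit3b and 0.15 for Ifit2 (adjusted p = 0.697). The neighbour Oas1g had a log2 fold change of 1.37 (adjusted p = 0.121). Without SHAM7 and SHAM8, 1 member, Oasl2, passed, where 29 of all tested genes rose, against 433 with all libraries. Oas1a then had a log2 fold change of 1.58 (adjusted p = 0.0667).

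Of 12 relatives and partners listed, 8 could be tested, 1 rose and none fell, with a median log2 fold change of 0.04. The 1 that rose was Oas1g (ENSMUSG00000066861), an OAS1 copy next to Oas1a. It lay between 0.103 and 0.781 CPM in SHAM libraries and between 0.542 and 6.15 CPM in MM libraries, with a log2 fold change of 2.39 ± 0.49 (5.23-fold; adjusted p = 0.0200). Oas1b, whose main annotated transcript is a polymorphic pseudogene, had a log2 fold change of 0.69 ± 0.21 (adjusted p = 0.0756). Oas1c, which carries the run of ISRE letters shown above, had a mean of 8.86 CPM in MM and 8.85 in SHAM libraries. Its log2 fold change was 0.00 ± 0.08, with a 95% interval from -0.17 to 0.17. Ifit1bl2, 1 of whose 2 promoter windows overlaps that of Ifit1, had a log2 fold change of -0.03 with an interval from -0.35 to 0.29. Oas1d, Oas1e, Oas1f and Oas1h had at most 5 reads in any library.

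Abce1, which encodes a factor that recycles ribosomes, had a log2 fold change of 0.07 ± 0.05, with a 95% interval from -0.04 to 0.18 (adjusted p = 0.428). Pde12, which encodes a phosphodiesterase that degrades oligoadenylates, had a log2 fold change of 0.07 ± 0.05, with a 95% interval from -0.03 to 0.18 (adjusted p = 0.403). Neither passed.

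**Figure D4:**
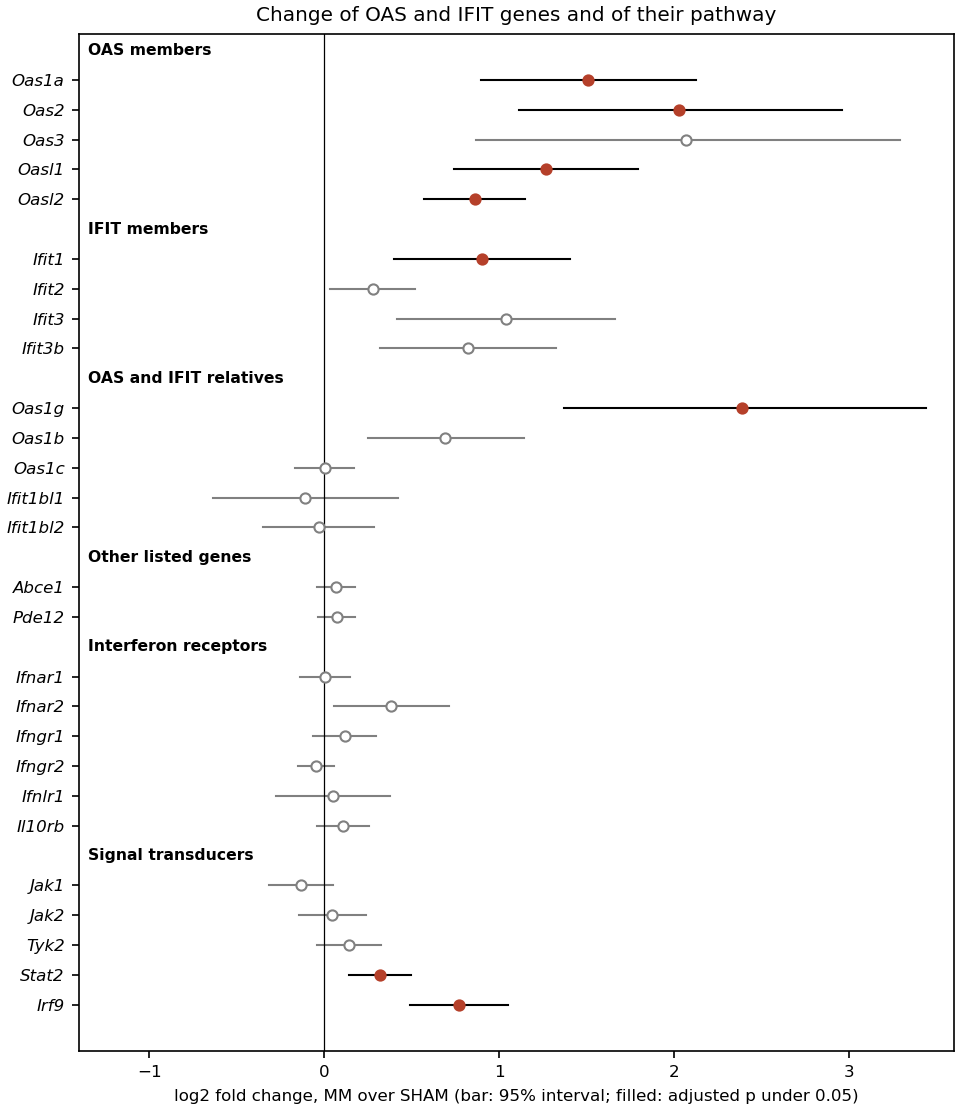
Log2 fold change of MM over SHAM with 95% interval for the members, their relatives, Abce1 and Pde12, interferon receptors and signal transducers; filled points passed at an adjusted p under 0.05. The interval of Oas1c runs from -0.17 to 0.17, and those of all 9 members lie above 0, although 4 of the 9 did not pass. Each interval is for 1 gene and is not adjusted for the number of genes tested.

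Upstream, transcripts of the listed interferon genes were too few to test. Of 15 interferon genes none could be tested, 11 had no read in any library, and all 15 together had 11 reads in the MM and 9 in the SHAM libraries. Ifng held most of them, with 8 and 5 reads. Of 6 receptor genes none passed by edgeR or by DESeq2, and 1, Ifnar2, had an unadjusted p under 0.05. Ifnar1 had a log2 fold change of 0.00 ± 0.07 and Ifnar2 of 0.39 ± 0.16 (adjusted p = 0.163). Of 6 signal transducers 3 rose and none fell. Among them Irf9 rose by a log2 fold change of 0.77 ± 0.13 (adjusted p = 0.00986) and Stat2 by 0.32 ± 0.08 (adjusted p = 0.0485). Stat2 passed in 5 of 18 fits without 1 library, and Irf9 in all 18. Of 3 inhibitors, Usp18, which dampens receptor signalling, rose by a log2 fold change of 1.196 ± 0.27 (adjusted p = 0.0267), which passed in 9 of 18 fits without 1 library. Socs3 had 1.72 ± 0.49 (0.0618) and Socs1 0.08 ± 0.35 (0.912), and neither passed.

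Of 23 other interferon-induced genes, 13 rose, none fell and all 23 log2 fold changes were positive, with a median of 0.93. By the lowest p these were Ifi44 with a log2 fold change of 1.85 (adjusted p = 0.00681), the transcription factor Irf7 with 2.15 (0.00681), the receptor chaperone Rtp4 with 1.32 (0.00998) and the RNA sensor Dhx58 with 1.39 (0.0130). The log2 fold changes in this list ran from 0.005 for Cmpk2 to 2.77 for Zbp1, 2 genes named for standing at its ends, and those of the members from 0.28 to 2.07.

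The genes most alike to the members across libraries were found from the log2 CPM minus the SHAM mean. The root-mean-square difference from the members' average was taken over 18 libraries, among 14749 genes with a mean of at least 1 CPM. The 5 nearest were Parp9 at 0.224, Rtp4 at 0.225, Ifitm3 at 0.241, Isg15 at 0.248 and Sp100 at 0.250, against a median of 0.932 over all candidates. Of the members themselves, Oasl1 lay nearest to their average, at 0.271, and Oas3 farthest, at 0.830. That average lay between 0.37 (MM2) and 2.32 (MM5) in MM libraries and between -0.48 (SHAM1) and 0.56 (SHAM4) in SHAM libraries, so the groups overlapped through MM2 and MM6.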

How the data were processed

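Members and gene lists were chosen with earlier results of these data known. Per the submitters' processing notes, the authors used Salmon 1.5.2, DESeq2 and GRCm39; index and options are not given in the sources used here. Per transcript, the deposited files hold an unscaled estimated count of reads, and TPM values scaled by the authors with Salmon. A deposited gene table gives normalized signal values that, per those notes, the authors made with DESeq2; it served as an alternative.

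Estimated counts were summed per gene through GENCODE M21 (GRCm38) and rounded. Of 137562 transcripts, 3620 had no gene there and held 0.85% to 1.339% of reads. Libraries held 19218249 to 21771206 estimated reads. Genes kept by filterByExpr were scaled by TMM and tested with edgeR 4.0.16 (R 4.3.3; robust quasi-likelihood, group only; biological coefficient of variation 0.258). The threshold was a Benjamini-Hochberg adjusted p of 0.05; log2 CPM used a prior count of 2. DESeq2 1.42.0 and limma 3.58.1 gave alternatives. On simulated counts (15733 genes), 48% of 1.25-fold, 68% of 1.5-fold, 92% of 2-fold and 98% of 4-fold changes were recovered. There were 5 false among 158 calls. Recovery at the spread of the real libraries was not tested. The SD of Oas3 was 3.43 CPM in MM and 0.604 CPM in SHAM libraries, and that of Ifit3 was 22.9 and 7.06 CPM. In the real libraries Oas3, at 4.21-fold, and Ifit3, at 2.06-fold, did not pass.

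Named were all members, up to 4 genes per other list and direction with the lowest p among those passing, Abce1 and Pde12, and the 5 genes most like the members; other names were chosen after their values were seen. Some results that this rule names are not reported here. Cell type markers were 5 to 8 genes per list: those of satellite glia (0 of 6), Schwann cells (0 of 6), neutrophils (0 of 4 tested) and endothelium (0 of 5) held none that passed. Promoter windows and their coordinates are RefSeq's; because the authors' build differs, no read was placed on them. Protein sequences were not used here.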

Additional observations from a re-analysis of the deposited data

Results flagged for a closer look

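In log2 CPM, 18 groups of 9 libraries (9 members in MM and in SHAM) were examined for a library far from the rest by the gap to the nearest library over the whole range, against Dixon's 95% critical value. Ifit3 in MM5 stood apart at 0.512, with 94.3 CPM against 39.9 CPM in the next library, MM9. Ifit3b in MM5 stood apart at 0.517, with 22.9 CPM against 12.2 CPM in MM9. Chance gives such a gap in about 1 in 20 groups, and the 2 genes share sequence, so they are not separate observations. Without MM5, the log2 fold changes were 0.73 for Ifit3 and 0.62 for Ifit3b. MM5 also had the highest summed CPM of all libraries for macrophage (298), Schwann cell (16750) and endothelial (196.7) markers, and the lowest for sensory neuron markers (4540); their part in these values was not tested.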

How the results depend on the processing

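All 9 members kept a positive log2 fold change in every fit. Of the members, 4 to 6 passed with RLE size factors, without or with a stricter low-count filter, without robust estimation, with length-scaled counts, with paralogs summed and in the deposited table. Ifit1 did not pass with RLE (0.90), without a filter (0.89) or in the deposited table (0.90). Oas3 passed with length-scaled counts (2.12). With DESeq2, 8 members passed, with Oas3 (2.08), Ifit3 (1.03) and Ifit3b (0.82) added; there 5.99% of all tested genes rose. Genes called among all tested were 471 (433 higher), 1201 (945 higher) with DESeq2 and 251 (195 higher) in the deposited table. DESeq2 called 2 relatives and 2 inhibitors. Transducers called fell to 1 without a filter, with length-scaled counts and in the deposited table, and relatives called to 0 with paralogs summed, where Oas1g was merged.

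Leaving out each library in turn gave 3 to 8 members called, 84 to 1014 genes called, 1 to 2 relatives, 1 to 3 transducers, 0 to 2 inhibitors and 7 to 15 other interferon-induced genes. Log2 fold changes then ranged from 1.21 to 1.603 (Oas1a), 1.67 to 2.16 (Oas2), 1.59 to 2.35 (Oas3), 1.08 to 1.36 (Oasl1), 0.80 to 0.93 (Oasl2), 0.77 to 1.02 (Ifit1), 0.19 to 0.32 (Ifit2), 0.73 to 1.15 (Ifit3) and 0.62 to 0.95 (Ifit3b), lowest without MM5 for every member.

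2 removals were chosen after seeing the data. Without MM5, MM8 and MM9, 60 genes were called: 2 members, 0 relatives, 1 transducer, 0 inhibitors and 4 other interferon-induced genes, and Oas2 (1.01), Oasl1 (0.72) and Ifit1 (0.65) did not pass. Without SHAM7 and SHAM8, 35 genes were called: 1 member (Oasl2), 0 relatives, 0 transducers, 0 inhibitors and 2 other interferon-induced genes. Oas1a (1.58), Oas2 (1.92), Oasl1 (1.247) and Ifit1 (0.98) did not pass there. The cause was not tested.

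Same-numbered MM and SHAM libraries correlated above 0.1 in 2 of 9 pairs, so the numbers are not taken as pairing. With the replicate block, 8 genes were called: 0 members (9 at an unadjusted p under 0.05), 0 relatives, 0 transducers, 0 inhibitors and 0 other interferon-induced genes. Values with the replicate block were 1.34 (Oas1a), 1.80 (Oas2), 1.14 (Oasl1), 0.83 (Oasl2) and 0.90 (Ifit1), at an adjusted p of at least 0.0613. Low counts of Oas2, Oas3 and Oas1g limit their precision.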
